A study of Mus musculus with 3 samples.

Results

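Splenic B cells were compared with embryonic stem (ES) cells over every gene that the arrays could name, with 1 array for each population. Of 18193 genes with a probe set of a single gene symbol, 12463 were above the detection level in the B cell array or the ES cell array, and these measured genes were described. A splenic CD4 T cell array, the third of the 3 arrays of the study, was used beside them to find genes that were changed in B cells and not in T cells. All 3 populations came from the C57BL/6 strain. The ES cells were the B6N-22 line, which is 1 line, grown with leukemia inhibitory factor on mouse embryonic fibroblasts that had been stopped from dividing with mitomycin C. The B cells carried the B220 surface marker and the T cells the CD4 marker. Both were isolated with magnetic beads from the spleens of mice aged 6 to 8 weeks, and the purity given in the labels was above 98%. The number of mice pooled is not given in the sources used for this work, nor whether the feeder cells were removed. Total RNA was extracted with Trizol and made into biotin-labelled copies with a kit that starts from the 3' end of the transcript, so a signal reports mainly the end of a transcript.

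A mature B cell of the spleen is a resting, freely moving cell that carries an immunoglobulin as its antigen receptor, takes up antigen and presents it on MHC class II molecules. Most splenic B cells are follicular cells that recirculate, and a smaller number are marginal zone cells that stay at the border of the white pulp. An ES cell divides rapidly, adheres to its neighbours and its matrix, and keeps the ability to form every tissue of the embryo. The comparison sets a small, quiescent, circulating cell against a large, growing, adherent one. The sources do not state the purpose of the comparison.

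The deposited values were signals on a linear scale, one for each probe set in each array. A signal of 95.0, the median of all values, served as the detection level, and the log2 was taken after lower signals were set to that level. Where the dimmer array was at or below that level, the fold is a lower limit, marked by the words "at least". Genes were called higher or lower where they differed at least 4-fold, a log2 difference of 2. A measured gene at or below the detection level in 1 of the 2 arrays could differ only towards the other array. This limits the counts by direction in the lists below. With 1 array a side there was no replicate check, so no test was run and no value below has an error from replicates. The probes gave the only measure of error, from the 2 brightest probe sets of a gene that were above the detection level in both arrays. Over 3958 genes, their disagreement gave an SD of 0.610 for the log2 difference of 1 probe set. That SD is the SD of the disagreement divided by the square root of 2. The median absolute disagreement of the 2 probe sets was 0.413. This covers probe effects and not the differences between animals or cultures. Arrays also measure a population, so fewer cells of a type and less RNA per cell cannot be told apart.

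The labels were checked against cell type markers. All 14 measured B cell markers were called higher in the B cell array, with a median log2 difference of 6.42, and 12 of 13 ES cell markers were lower, with a median of -5.94. The T cell array was not free of B cell marker signal: 7 of the 14 B cell markers were at least 4-fold above ES cells there. The 14 signals summed to 215639 in B cells, 30552 in T cells and 1082 in ES cells, and Ighm, the heavy chain of IgM, reached 46214 in B cells and 20056 in T cells. Of 9 measured T cell markers, 0 were higher in the B cell array, and Cd3d, of the CD3 complex, was at 364 in B cells and 17144 in T cells. Macrophage markers were present in both lymphocyte arrays, since 9 of 14 were higher in B cells than in ES cells. Their signals summed to 32058 in B cells, 5610.1 in ES cells and 77476 in T cells. Smaller numbers of called markers were found for plasmacytoid dendritic cells (3 of 10), conventional dendritic cells (1 of 8), NK cells (3 of 10), neutrophils (2 of 7), platelets (2 of 7) and plasma cells (3 of 7), and 0 of 2 erythroid markers were called. On the other side, 19 of 20 fibroblast markers were called lower, with summed signals of 93457 in ES cells and 995 in B cells. The greatest difference among them was that of Col1a2, a collagen chain, with signals of 80.9 in B cells, 50.5 in T cells and 15844 in ES cells. The part of these other cells in the results below was not tested, except where a value is given.

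Of the 12463 measured genes, 1227 (9.85%) were called higher in B cells and 1289 (10.3%) were called lower, while 54.3% lay within 2-fold. The median log2 difference of all measured genes was -0.07. Scaling each array to its 75th percentile in place of the deposited scaling moved that median to -0.37, and quantile normalization moved it to -0.22. The higher genes were 48.8% of all called genes as deposited, 37.4% after scaling to the 75th percentile and 42.3% after quantile normalization. Differences are best read against these medians. For 509 of the higher genes and 668 of the lower genes, the dimmer array was at or below the detection level. Counted by probe set, 2149 of 22623 measured probe sets (9.50%) were higher and 1869 (8.26%) were lower. Many genes had several probe sets that disagreed: of 734 higher genes with several, 246 had all of them at least 4-fold higher, and of 768 lower genes with several, 158 had all of them at least 4-fold lower. The range over probe sets is printed for only some of the genes named below, so a gene without one may also have probe sets that disagree.

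**Figure D1:**
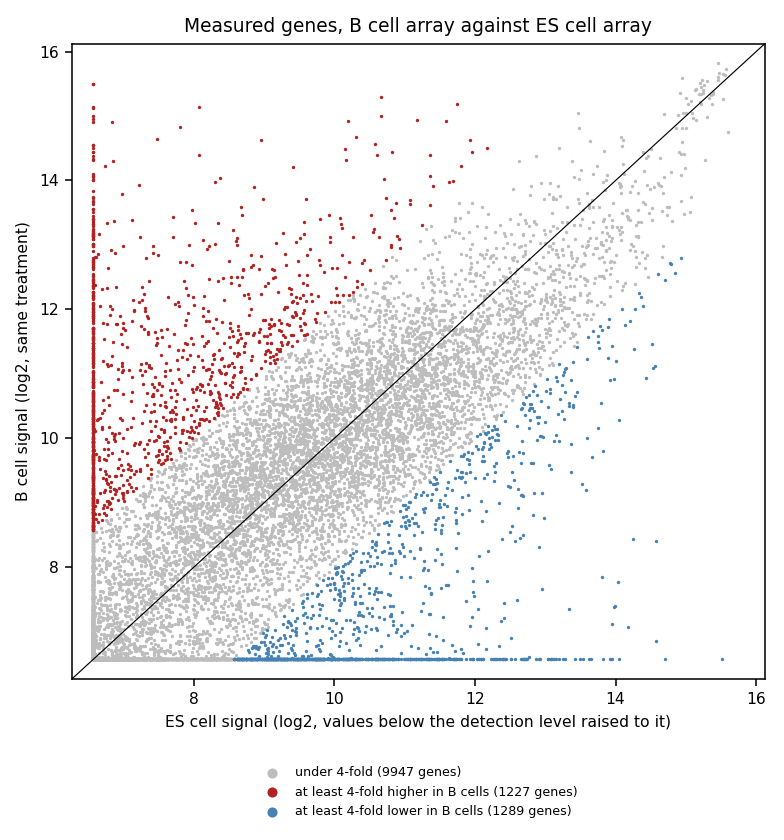
Log2 signal of each measured gene in the B cell array (vertical) against the ES cell array (horizontal), 1 point per gene, with signals below 95.0 raised to it. The 1227 red genes are at least 4-fold higher in B cells, the 1289 blue genes at least 4-fold lower, and the points on the left and lower edges are genes at or below the detection level in 1 array.

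The B cell array carried the genes of both follicular and marginal zone B cells. Of 11 measured follicular genes, 10 were called higher and 0 lower. The median log2 difference was 6.42 in B cells and 3.39 in T cells. Fcmr, the Fc receptor for IgM, had signals of 23211 in B cells against 756 in T cells and 60.2 in ES cells. Tnfrsf13c, the receptor for the survival factor BAFF, had signals of 50.1 in ES cells but 10527 in B cells and 372 in T cells. Both were near background in ES cells and far higher in B cells than in T cells. Btla, an inhibitory receptor of B and T cells, stood at 20543 in B cells, 5731 in T cells and 65 in ES cells, and was high in both lymphocyte arrays. Among 16 marginal zone genes, 11 were higher and 1 was lower, with medians of 3.53 in B cells and 1.87 in T cells. Mzb1, an endoplasmic reticulum protein that helps immunoglobulin assembly, had signals of 41.6 in ES cells but 14591 in B cells and 1367 in T cells. Cr2, the complement receptor CD21, had signals of 12032 in B cells, 384 in T cells and 42.3 in ES cells. Cd1d1, which presents lipids to NKT cells, had signals of 2845 in B cells, 3189 in T cells and 87.7 in ES cells. Cd9, a tetraspanin used to mark marginal zone cells, went the other way: its signal was 7001 in ES cells and 1148 in B cells, 6.10-fold lower.

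Genes of other B cell states were fewer and less uniform. Of 9 measured genes of transitional and immature B cells, 3 were higher and 1 was lower. Vpreb3, related to the surrogate light chain, had signals of 57.0 in ES cells but 2696 in B cells and 194 in T cells, and Cd93, a surface marker of immature B cells, was at least 5.52-fold higher. The 5 probe sets of Cd93 ranged from 0.00 to 2.46. The lower one was Bub1, a kinase of the mitotic checkpoint, at 4677 in ES cells and 305 in B cells. Of 10 B1 cell genes, only Cd300lf was called, and it is also an inhibitory receptor of myeloid cells. Cd5, the surface protein that defines B1a cells, had signals of 40.0 in ES cells but 166 in B cells and 10177 in T cells, a log2 difference of 0.81. The germinal centre list was divided, with 6 members higher and 3 lower of 17. Its higher members were led by transcription factors. Bach2, a repressor that holds back plasma cell formation, had signals of 7542 in B cells, 3752 in T cells and 117 in ES cells. Irf4, needed for plasma cells, stood at 2713 in B cells against 545 in T cells and 7.1 in ES cells, and Bcl6, the repressor of the germinal centre programme, at 1846 in B cells, 1175 in T cells and 182 in ES cells. All 3 were highest in the B cell array. The lower members were DNA repair enzymes that dividing cells also use: Exo1, an exonuclease, was 10.5-fold lower, Ung, which removes uracil from DNA, 7.68-fold lower, and Msh6, of mismatch repair, 6.99-fold lower. The median of this list, 0.41, turned to -0.23 under a detection level at the 65th percentile.

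Inhibitory receptors and the phosphatases that act behind them were higher as a group. Such receptors carry an ITIM, a short tyrosine motif that recruits phosphatases to damp signals from the antigen receptor. Of 21 measured members, 17 were higher and 0 lower. The median log2 difference was 3.97 in B cells and 3.07 in T cells. Cd22, a sialic acid-binding inhibitor of the B cell receptor, had signals of 19107 in B cells, 1008 in T cells and 107 in ES cells. Cd72, which binds the semaphorin Sema4d, stood at 10799 in B cells against 1162 in T cells and 56.2 in ES cells. Fcrl1, an Fc receptor-like protein, had signals of 9661 in B cells against 660.1 in T cells and 5.1 in ES cells. These receptors were lowest in ES cells and at least 8-fold higher in B cells than in T cells. Ptpn6, the phosphatase SHP-1, was shared: its signals were 463 in ES cells but 15285 in B cells and 7717 in T cells. SLAM receptors, which lymphocytes use to recognise one another, were higher in 6 of 9 measured members. All 9 were at or below the detection level in ES cells, so none could have been lower. Cd48 had signals of 6367 in B cells, 7559 in T cells and 6.2 in ES cells, and Slamf6 had signals of 8 in ES cells but 2969.7 in B cells and 3171 in T cells, so that B and T cells carried similar amounts.

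Receptors coupled to G proteins guide lymphocytes through the spleen. Of 20 measured receptors of leukocytes, 11 were higher and 0 lower, with a median of 2.15 in B cells and 2.62 in T cells. Gpr18 had signals of 7653 in B cells, 3035 in T cells and 80.4 in ES cells. P2ry10, a receptor for lysophospholipids, had signals of 6981 in B cells, 4820.1 in T cells and 23.6 in ES cells. Gpr183, the oxysterol receptor that positions B cells within the follicle, stood at 3351 in B cells, 2099 in T cells and 6.6 in ES cells. All 3 were higher in both lymphocyte arrays, with the highest signal in B cells. The proteins that pass on and end these signals were mixed, with 10 higher and 4 lower of 36. Regulators of G protein signalling, which speed up signal termination, led the higher ones: Rgs2 was 32.1-fold higher, Rgs1 at least 17.6-fold and Rgs14 15.8-fold. The lower ones were Gnai1, an inhibitory alpha subunit, at 1155 in ES cells and 42.9 in B cells, with the gamma subunits Gng3 and Gng11 and the regulator Rgs16. Rgs16 was 5.32-fold lower in B cells and 1.17-fold lower in T cells.

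Calcium entry and release is a signal that follows the B cell receptor. The list used here held calcium channels and pumps together with channels for other ions. Of its 36 measured members, 15 were higher and 0 lower. Hvcn1, a proton channel, had signals of 244 in ES cells but 8210.3 in B cells and 1599.6 in T cells. Atp2a3, a pump that refills calcium stores, stood at 4146 in B cells, 1996 in T cells and 158 in ES cells, and Itpr2, a receptor for inositol trisphosphate that releases calcium, at 1567 in B cells, 1759 in T cells and 42.4 in ES cells. Hvcn1 and Atp2a3 were highest in B cells, while Itpr2 was similar in both lymphocyte arrays. Lipid signalling was divided, with 9 members higher and 7 lower of 49. Pld4, a phospholipase D family member that is also a marker of plasmacytoid dendritic cells, was at least 26.6-fold higher. Dgka, a diacylglycerol kinase, which ends the signal of diacylglycerol, was 6.20-fold higher in B cells and 23.2-fold higher in T cells. Ptgs2, the inducible prostaglandin synthase, had signals of 122 in B cells, 444 in T cells and 2786 in ES cells, and was the most reduced of the 49. The median of this list, -0.04, turned to 0.05 under a detection level at the 65th percentile and to 0.11 with the mean of all probe sets.

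Cytoskeletal genes were called in both directions. Leukocytes move by protruding actin at the front, whereas cells attached to a matrix pull on it through stress fibres and focal adhesions. All 47 measured actin regulators of leukocytes had a positive difference, and 39 were called higher and 0 lower. Of the 47, 22 were at or below the detection level in ES cells and could only be positive. The median was 4.30 in B cells and 4.31 in T cells. Cytip, a scaffold of integrin and actin signalling, had signals of 20338 in B cells, 21842 in T cells and 56.7 in ES cells. Fermt3, the kindlin of blood cells, which activates integrins, stood at 13523 in B cells, 13074 in T cells and 94.8 in ES cells. Coro1a, an actin-binding coronin, had signals of 28989.5 in B cells, 24396 in T cells and 223 in ES cells. Rac2, the blood cell form of the Rac GTPase, stood at 62.2 in ES cells but 11660.1 in B cells and 11485 in T cells. These 4 were high in both lymphocyte arrays and at least 100-fold lower in ES cells. Stress fibre and focal adhesion genes went the other way, with 0 of 40 higher and 20 lower, and a median of -1.98 in B cells and -1.98 in T cells. Enah, which elongates actin filaments, had signals of 6.4 in B cells, 6.8 in T cells and 17004 in ES cells. Cald1, caldesmon, had signals of 9960.0 in ES cells but 66.3 in B cells and 32.6 in T cells, and Myh10, a non-muscle myosin, 12.4 in B cells, 69.3 in T cells and 3411 in ES cells. By these probe sets the 3 were detected in ES cells alone. The 5 probe sets of Cald1 ranged from -6.71 to 0.00. Fibroblasts also express genes of this list, and 19 of the 20 fibroblast markers above were lower in B cells beside it. The part of the feeder cells was not tested.

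Families of paralogs were taken by their symbols. Of 8 measured DOCK proteins, which activate Rac and Cdc42, 4 were higher and 3 lower: Dock10 was at least 113-fold higher and Dock2 at least 55.2-fold higher, while Dock1 was at least 14.1-fold lower and Dock6 10.1-fold lower. The probe sets of Dock10 ranged from 2.67 to 6.82 and those of Dock2 from 2.72 to 5.79. Those of Dock1 ranged from -3.81 to 0.00 and those of Dock6 from -3.34 to 0.00. Receptor tyrosine phosphatases were divided too, with 3 higher and 4 lower of 12. Ptprc, which encodes CD45 and its B220 form, had signals of 30603 in B cells, 26728 in T cells and 70.4 in ES cells. Ptprf, a phosphatase of adherent cells, had signals of 3.3 in B cells, 174 in T cells and 6068 in ES cells. Of 15 tetraspanins named Tspan, 2 (13.3%) were higher, Tspan32 and Tspan13, and 3 (20.0%) were lower, beside 9.85% and 10.3% of all measured genes. Of 26 measured collagen chains 0 were higher and 15 lower (57.7%). Col1a2 is among the fibroblast markers above, and the part of the feeder cells in this count was not tested. Of 14 keratins 0 were higher and 2 lower (14.3%, beside 10.3% of all measured genes), Krt8 by at least 22.7-fold and Krt18 by at least 23.7-fold.

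**Figure D2:**
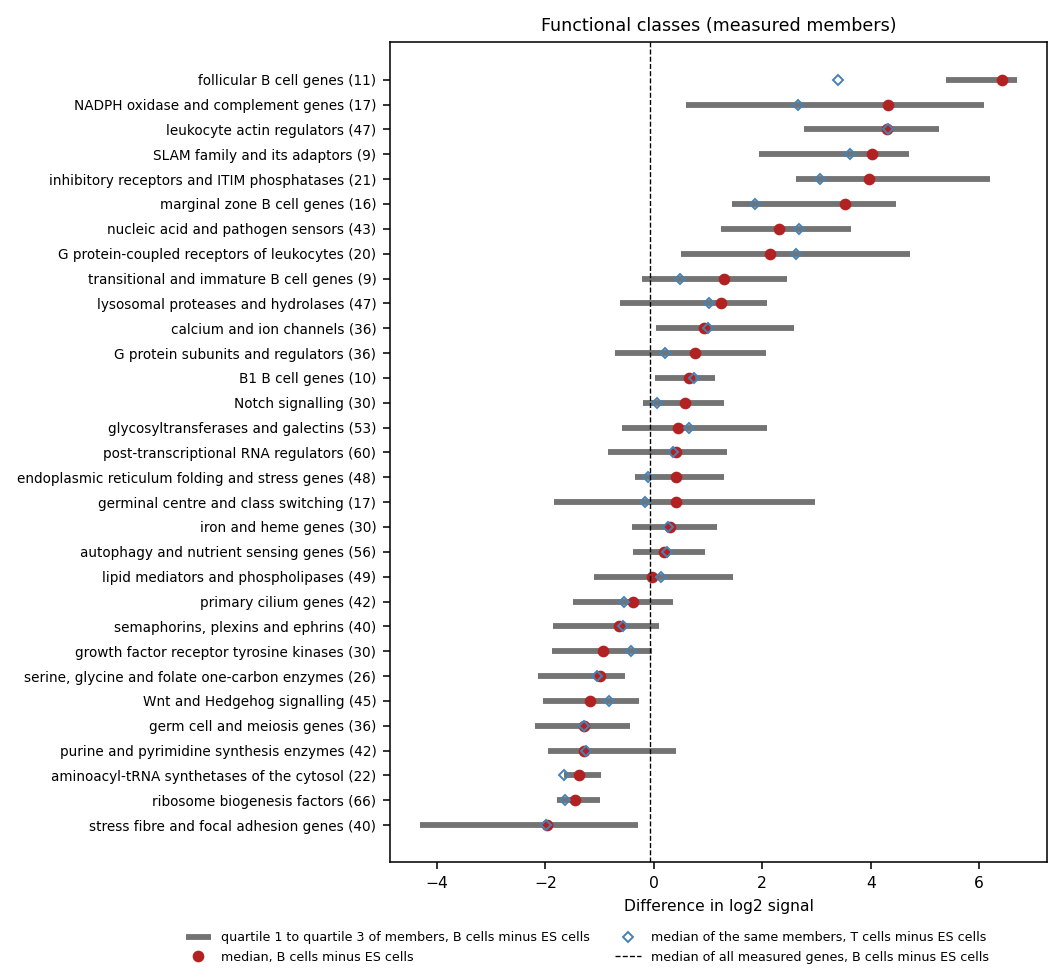
Median log2 difference of the measured members of each functional class, with grey bars from quartile 1 to quartile 3 for B cells minus ES cells, red points for the B cell medians and open blue diamonds for the medians of the same members in T cells minus ES cells. The number of measured members stands in brackets; leukocyte actin regulators (47 members) have a median of 4.30 and stress fibre and focal adhesion genes (40 members) one of -1.98, against -0.07 for all measured genes.

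Genes of signals that pass between cells of an embryo were called lower more than higher in 3 lists, although most members were not called. Wnt and Hedgehog genes were higher in 0 and lower in 12 of 45 measured members, with a median of -1.17. Fzd7, a Wnt receptor, had signals of 40.5 in B cells, 112 in T cells and 1430.4 in ES cells. Tcf7l1, a Wnt-responsive repressor of ES cells, stood at 30.3 in B cells, 86.5 in T cells and 1295 in ES cells. Both were far higher in ES cells than in either lymphocyte array. Receptor tyrosine kinases of growth factors were higher in 2 and lower in 7 of 30. The lower ones included Ryk, a Wnt co-receptor, at least 14.9-fold lower, and Fgfr1, at least 6.43-fold lower. Of the 2 higher ones, Mertk, which macrophages use to take up dead cells, had signals of 619 in B cells, 1549 in T cells and 127 in ES cells, and it belongs to the macrophage marker list as well. Ltk had signals of 412 in B cells against 5.4 in T cells and 89.9 in ES cells and was high in B cells alone. Guidance molecules of the semaphorin, plexin and ephrin families were higher in 2 and lower in 10 of 40. Ntn1, a netrin, was at least 15.7-fold lower and Epha2, an ephrin receptor, at least 13.8-fold lower. The 2 higher ones are known in lymphocytes: Plxnc1, a plexin, had signals of 2343 in B cells, 1359 in T cells and 105 in ES cells, and Sema4d, the ligand of Cd72, had signals of 2205 in B cells, 2109.6 in T cells and 382 in ES cells.

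Notch genes were called in shares near those of all genes, 4 of 30 higher (13.3%) and 3 of 30 lower. Notch2, the receptor that marginal zone B cells depend on, had signals of 5930.3 in B cells, 1728 in T cells and 780.1 in ES cells, and was highest in B cells. Dtx1, a Notch target and ubiquitin ligase, stood at 6252 in B cells, 4558 in T cells and 416 in ES cells. Psen2, of the protease complex that releases the active part of Notch, had signals of 2503 in B cells, 2351 in T cells and 309 in ES cells. With Mfng, a glycosyltransferase that modifies Notch, these were the 4 higher members of 30. The 3 lower members were the receptor Notch3, the ligand Jag1, at 1034 in ES cells and 50.3 in B cells, and Rbpj, the DNA-binding partner of Notch, at 4208 in ES cells and 909.5 in B cells. Genes of the primary cilium, a sensory structure on the surface of many dividing tissue cells, were lower in 6 (14.3%) and higher in 2 (4.76%) of 42. All measured genes stood at 10.3% and 9.85%, and the median of the cilium list was -0.39. Ift43 was at least 8.07-fold lower and B9d1 7.78-fold lower. Ift140 was 4.56-fold higher, with signals of 3116 in B cells against 756 in T cells and 684 in ES cells, and it was high in B cells alone.

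Lysosomal enzymes include those that cut antigens and the invariant chain. Of 47 measured members 14 were higher and 3 lower, and 30 were not called, with a median of 1.24 in B cells and 1.01 in T cells. Ctss, the cathepsin that trims the invariant chain in B cells, had signals of 21599 in B cells, 14488 in T cells and 270.4 in ES cells. Ctsh, another cathepsin, had signals of 11098 in B cells, 2708 in T cells and 209 in ES cells. Laptm5, a lysosomal membrane protein of blood cells, stood at 13379 in B cells, 16548 in T cells and 774 in ES cells. Ctsl, the cathepsin with a like function in thymic epithelium, had the opposite pattern, with signals of 14442 in ES cells but 892 in B cells and 2131 in T cells. Against ES cells, Ctss was thus 79.9-fold higher and Ctsl 16.2-fold lower. Ctss had 1 probe set, and the 2 probe sets of Ctsl ranged from -4.02 to 0.00. Endoplasmic reticulum genes were higher in 5 (10.4%) and lower in 2 (4.17%) of 48. The higher share was near the 9.85% of all measured genes, of which 10.3% were lower. Ero1b, an oxidase of protein folding, had signals of 6825 in B cells, 748 in T cells and 236 in ES cells, and Herpud1, of the degradation of misfolded proteins, 4547 in B cells, 2719 in T cells and 344 in ES cells. Pdia5, a disulfide isomerase, was at least 16.6-fold lower.

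The list of glycosyltransferases, enzymes that build sugars onto proteins and lipids, and of galectins had 14 members higher and 3 lower of 53. The 3 higher ones described next act on sialic acid. St6gal1, which makes the sialic acid linkage that Cd22 binds, had signals of 411 in ES cells but 11358 in B cells and 7179 in T cells. Cmah, which turns 1 form of sialic acid into another, had signals of 3749 in B cells, 2586 in T cells and 7.7 in ES cells. St8sia4, which adds polysialic acid, stood at 6762 in B cells, 4794 in T cells and 34.3 in ES cells. All 3 were higher in both lymphocyte arrays. The lower ones were B4galt6, of lactosylceramide synthesis, at least 20.2-fold lower, Gcnt2, which branches the I antigen, at least 9.16-fold lower, and Lgals1, a galectin, at 2233 in B cells, 9091 in T cells and 24198 in ES cells.

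Genes of the oxidative burst and of complement were higher in 10 and lower in 0 of 17 measured members. The phagocyte NADPH oxidase makes superoxide in phagocytes and is also present in B cells. Cybb, its membrane subunit, had signals of 10227 in B cells, 2355 in T cells and 49.1 in ES cells. Ncf4, a cytosolic subunit, had signals of 45.7 in ES cells but 6856 in B cells and 1847 in T cells. Both were higher in B cells than in T cells. The chains of complement C1q ran the other way round: C1qa had signals of 3529 in B cells, 8028 in T cells and 127 in ES cells and C1qb of 2739 in B cells, 6537 in T cells and 133 in ES cells, highest in T cells. C1q chains are macrophage markers, and Csf1r, the receptor that macrophages need, had signals of 8929.9 in B cells, 19275 in T cells and 209 in ES cells. The sum of the macrophage markers was likewise highest in the T cell array, and their part in the C1q values was not tested. Cd55, which protects cells from complement, had signals of 8126 in B cells, 999 in T cells and 72.3 in ES cells.

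Sensors of nucleic acids and pathogens were higher in 26 and lower in 0 of 43, and 41 of the 43 differences were above 0. Of the 43, 20 were at or below the detection level in ES cells and could only be above 0. The median was 2.31 in B cells and 2.68 in T cells. Mndal, of the HIN-200 family that binds DNA, had signals of 22322 in B cells, 16327 in T cells and 48.9 in ES cells. Unc93b1, which carries nucleic acid-sensing Toll-like receptors to endosomes, stood at 4029.5 in B cells, 1019.9 in T cells and 142 in ES cells. Irf8, a transcription factor of B and myeloid cells, had signals of 8989 in B cells, 2308 in T cells and 76.8 in ES cells. Mndal was high in both lymphocyte arrays, and the other two were highest in B cells. Related families had the same direction. All 8 measured GIMAP GTPases, small GTPases of lymphocyte survival, were higher, as were 8 of 9 guanylate-binding proteins and p47 GTPases, 4 of 6 HIN-200 genes and 4 of 7 schlafen genes. Their medians in B cells were 5.70, 3.24, 3.93 and 2.30. In T cells they were 5.82, 4.72, 3.93 and 3.39. All 8 GIMAP genes and 7 of the 9 guanylate-binding proteins and p47 GTPases were at or below the detection level in ES cells. None of these could have been lower in B cells. Tripartite motif proteins were divided, with 11 higher and 5 lower of 40. Trim34a and Trim30a, of an antiviral cluster, were 63.4-fold and at least 59.1-fold higher, whereas Trim71, a partner of microRNAs in ES cells, was at least 57.0-fold lower and Trim6 at least 35.5-fold lower. Members of these families are close copies in part, so a probe set may have read more than 1 of them.

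Genes of growth had negative differences in most members of 3 lists, mostly under 4-fold, and those of the cytosolic ribosome did not. All 66 measured ribosome biogenesis factors had a negative difference and all 66 were above the detection level in both arrays, yet only 10 were called lower, with a median of -1.46 in B cells and -1.63 in T cells. Nop58, which carries box C/D small nucleolar RNAs, had signals of 2403 in B cells, 2332 in T cells and 12318 in ES cells. Nhp2, of box H/ACA particles, had signals of 4116 in B cells, 2426 in T cells and 19749 in ES cells, and Wdr12, of large subunit assembly, 3880.4 in ES cells but 711 in B cells and 949.5 in T cells. Signals of both lymphocyte arrays were at least 4-fold below that of ES cells in each case. Aminoacyl-tRNA synthetases of the cytosol had differences below 0 in 20 of 22, but just 2 (9.09%), Gars and Aars, passed 4-fold, near the 10.3% of all measured genes. Their median was -1.38. Mitochondrial ribosomal proteins had a median of -0.97 with 4 of 76 lower and 0 higher. The proteins of the cytosolic ribosome itself did not move in the same way, with a median of 0.06, which turned to -0.29 after scaling to the 75th percentile and to -0.04 with the mean of all probe sets. The 3 lower ones were the variants Rps4l, 56.1-fold lower, Rpl39l, at least 16.6-fold lower, and Rps27l, 4.23-fold lower, which have near-identical relatives, so their values are uncertain.

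The supply of nucleotides and 1-carbon units also rests on enzymes that growing cells use. Of 26 measured enzymes of serine, glycine and folate metabolism, 24 differences were below 0, 7 were called lower and 0 higher. Gldc, of the glycine cleavage system, had signals of 21.5 in B cells, 7.8 in T cells and 2381 in ES cells. Cth, which makes cysteine, had signals of 24.2 in B cells, 16.4 in T cells and 2411 in ES cells. Both were detected in ES cells alone. Shmt1, which links serine to folate, was 10.8-fold lower. Purine and pyrimidine enzymes were lower in 10 and higher in 5 of 42. Upp1, uridine phosphorylase, had signals of 9763 in ES cells but 58.9 in B cells and 20.4 in T cells. Rrm2, the ribonucleotide reductase subunit of dividing cells, stood at 10982 in ES cells but 1607 in B cells and 1812 in T cells. Rrm2b, the ribonucleotide reductase subunit that non-dividing cells use, went the other way with signals of 1365 in B cells, 1128 in T cells and 326 in ES cells. Samhd1, which breaks down deoxynucleotides, was also higher, with signals of 7335 in B cells, 6446 in T cells and 782 in ES cells, as was Tk2, the mitochondrial thymidine kinase, 6.83-fold higher.

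Nutrient sensing and autophagy genes were near the share of all genes, with 5 higher and 4 lower of 56. Sesn1, a sestrin, which restrains the growth kinase mTORC1, had signals of 3328 in B cells, 5152 in T cells and 156 in ES cells. Atg16l2 was 8.27-fold higher. Rragd, a GTPase that brings mTORC1 to the lysosome, had signals of 1473 in ES cells but 57.4 in B cells and 227 in T cells, and Fnip2, a folliculin partner, was at least 13.2-fold lower, with Deptor, an inhibitor of mTOR, at least 5.68-fold lower. The median of this list, 0.19, turned to -0.22 after scaling to the 75th percentile. Iron and heme genes were higher in 4 (13.3%) and lower in 1 (3.33%) of 30, beside 9.85% and 10.3% of all measured genes. Their median of 0.30 turned to -0.05 after scaling to the 75th percentile. Slc25a37, mitoferrin, which carries iron into mitochondria, had signals of 2851 in B cells against 845 in T cells and 236 in ES cells, highest in B cells. Slc11a1, an iron transporter of macrophage endosomes, had signals of 723 in B cells, 1721 in T cells and 81.1 in ES cells and Hfe, which regulates iron uptake, 557 in B cells, 1516 in T cells and 44.9 in ES cells. Both were highest in T cells, as the macrophage markers were, and their relation to those cells was not tested.

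RNA-binding regulators were called in both directions. Of 60 measured, 12 were higher and 9 lower. Zfp36, which destabilises AU-rich messages, had signals of 393 in ES cells but 8858 in B cells and 7312 in T cells. Zc3h12d, an RNase of the regnase family, had signals of 2297 in B cells, 1738 in T cells and 38.2 in ES cells. Lower members included the following. Lin28a, which blocks let-7 maturation, had signals of 54.4 in B cells, 16.9 in T cells and 2819.5 in ES cells. Trim71, a let-7 target, had signals of 6.3 in B cells, 10.1 in T cells and 5419 in ES cells, and Igf2bp1, an mRNA-binding protein of fetal cells, 16.9 in B cells, 13.4 in T cells and 5236 in ES cells. These 3 were detected in ES cells alone. Esrp1, a splicing factor of epithelia, was at least 18.2-fold lower, and Drosha, which cuts primary microRNAs, 9.43-fold lower, with 996 in B cells. Germ cell and meiosis genes were higher in 1 and lower in 11 of 36. Rhox5, an X-linked homeobox gene, had signals of 66.1 in B cells, 17.6 in T cells and 6715 in ES cells. Tdrd12, of the piRNA pathway, had signals of 8.9 in B cells, 18.1 in T cells and 1799 in ES cells. Both were at background in the lymphocyte arrays. The 1 higher gene was Tdrd7, a tudor protein, which passed 4-fold narrowly, at 4.03-fold.

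Some large differences were of genes not named above. Cd53, a tetraspanin of leukocytes, had signals of 116 in ES cells but 20163 in B cells and 16178 in T cells. Ly86, which pairs with the receptor RP105 on B cells, had signals of 29.9 in ES cells but 16474 in B cells and 3067 in T cells. Ltb, lymphotoxin beta, stood at 25488 in B cells, 20564 in T cells and 178 in ES cells. Prkcb, the protein kinase C that acts below the B cell receptor, had signals of 11209.7 in B cells, 4273 in T cells and 50.6 in ES cells. Ly86 and Prkcb were highest in B cells, and Cd53 and Ltb were high in both lymphocyte arrays. Napsa, an aspartic protease known from lung, had signals of 66.2 in ES cells but 10797 in B cells and 1260.1 in T cells. Tsc22d3, a transcription regulator induced by glucocorticoids, was 105-fold higher in B cells and 48.8-fold higher in T cells. In the other direction, Igfbp2, a binding protein for insulin-like growth factors, had signals of 11505 in ES cells but 7.7 in B cells and 31.2 in T cells, and Cttn, cortactin, 10938 in ES cells but 81.8 in B cells and 228 in T cells. Across the 5 probe sets of Cttn the log2 difference ranged from -6.85 to 0.00. Hcls1, the cortactin relative of blood cells, named after its value was seen, had signals of 3916 in B cells, 2693 in T cells and 4.3 in ES cells, the reverse of Cttn between B cells and ES cells. Asns, asparagine synthetase, was 63.6-fold lower, and Mt1, a metallothionein, 71.7-fold lower. Ctbp2, a corepressor, was 96.0-fold lower, and its 2 probe sets agreed, from -6.58 to -6.16.

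Some of the called genes lay beside each other. Among 12441 measured genes that could be placed on a chromosome, there were 39 runs of 3 or more neighbours all called higher, with 154 genes, and 32 runs all called lower, with 104 genes. Most called genes lay in no such run, and how many runs would arise without any grouping was not tested. The neighbours are in the order of the RefSeq gene table of GRCm38.p6. The longest higher run had 11 genes on chromosome 17, in the MHC class II region: H2-DMa, H2-DMb2, Psmb9, Tap1, Psmb8, Tap2, H2-Ob, H2-Ab1, H2-Aa, H2-Eb1 and H2-Eb2. It holds 2 subunits of the immunoproteasome, Psmb8 and Psmb9, and both chains of the peptide transporter of class I presentation, Tap1 and Tap2. Among 48 proteasome genes these 2 and Psmb10 were the only ones called higher, while the median of the 48 was -1.01. Several other runs were tandem families, while some were not, such as Stat4, Nab1, Nemp2 and Mfsd6 on chromosome 1. After the MHC run the longest held 9 immunoglobulin kappa genes on chromosome 6. The SLAM genes on chromosome 1 gave a run of 6, Trim34a to Trim30d on chromosome 7 a run of 6, Gimap8 to Gimap3 on chromosome 6 a run of 8, and Rgs2, Rgs13, Rgs1 and Rgs18 on chromosome 1 a run of 4. Aif1, Lst1, Ltb, Tnf and Lta on chromosome 17 made a run of 5, in which Ltb, Tnf and Lta encode cytokines and Aif1 is known from macrophages. On the lower side the longest run had 6 genes on the X chromosome, Bex2, Bex4, Tceal8, Bex1, Tceal9 and Bex3, with log2 differences from -8.13 to -2.24. Nectin3, Dppa4, Dppa2 and Morc1 on chromosome 16, Gdf3, Dppa3, Nanog and Slc2a3 on chromosome 6, and Meg3, Rian and Mirg on chromosome 12 were lower runs too. Meg3, Rian and Mirg are non-coding RNAs of 1 imprinted region. Tandem copies can share probe signal, so the members of 1 family are not independent values.

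**Figure D3:**
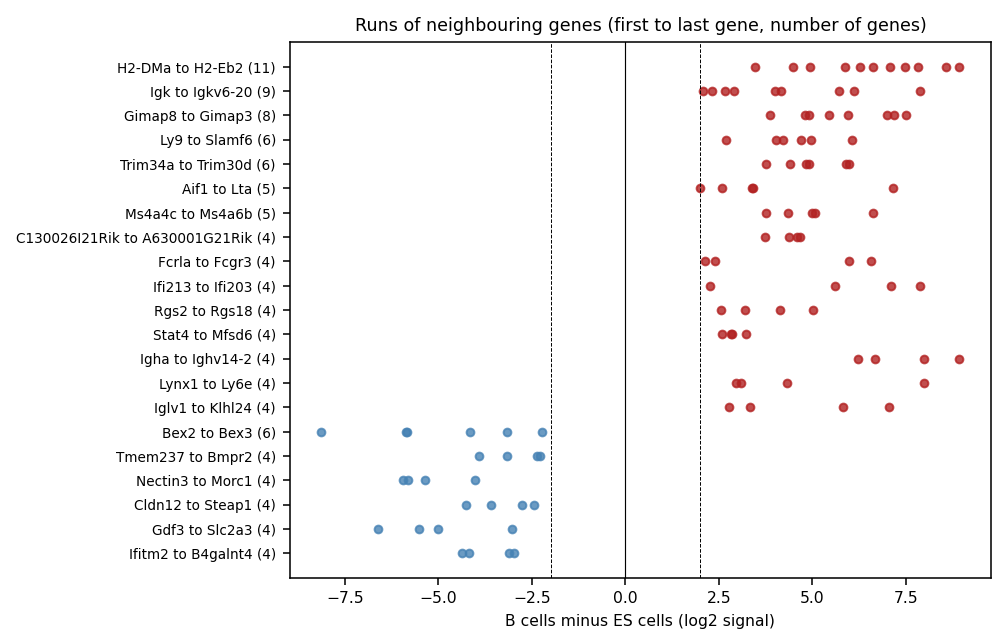
Log2 difference, B cells minus ES cells, of each gene in the runs of at least 4 neighbouring genes called the same way, 1 row per run and 1 point per gene, with 15 higher runs in red and 6 lower runs in blue. Dashed lines mark the 4-fold limits; the run from H2-DMa to H2-Eb2 spans 3.46 to 8.92 and the run from Bex2 to Bex3 -8.13 to -2.24.

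Most genes called in B cells were called the same way in T cells, and both comparisons share the ES cell array. Of the 1227 higher genes, 908 were called higher in T cells too, 219 lay between 2-fold and 4-fold, 0 were 4-fold lower, and 100 were within 2-fold of ES cells in T cells. Of the 1289 lower genes, 1056 were 4-fold lower in T cells, 164 were in between, 5 were 4-fold higher and 64 were within 2-fold. The 100 and 64 genes, changed in B cells and not in T cells, made up 0.802% and 0.514% of the measured genes. They are called here higher in B cells alone and lower in B cells alone. The measured values chose them, so their values are a description. The 100 had a median log2 difference of 2.62 in B cells and 0.34 in T cells, and the 64 had -2.41 and -0.69. A gene that is within 2-fold in T cells need not be far from B cells: 65 of the 100 and 22 of the 64 differed at least 4-fold between T cells and B cells. Among the 100, ES cells were at or below the detection level for 41 and T cells for 24. Just inside the limit for T cells lay Wdr44, a log2 difference of 0.9933 in T cells, and just outside lay Fcer2a, the low-affinity IgE receptor of B cells, at 1.0026 in T cells and 6.58 in B cells. For the lower genes, Arhgap29 was inside at -0.9879 and Mthfd2 outside at -1.0046. On the side of B cells, Tdrd7 at 2.01 and Iffo2 at -2.01 were nearest to the limit. For all called genes the nearest on each side were Trim65 at 2.0011 inside and Txndc5 at 1.9996 outside, and Cdr2l at -2.0008 inside and Rhox9 at -1.9996 outside. Of the 14 B cell markers, 7 were called higher in T cells as well, and 2, Ebf1 and Pax5, were among the 100. The part of this B cell marker signal of the T cell array in the counts of 908 and 100 was not tested.

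**Figure D4:**
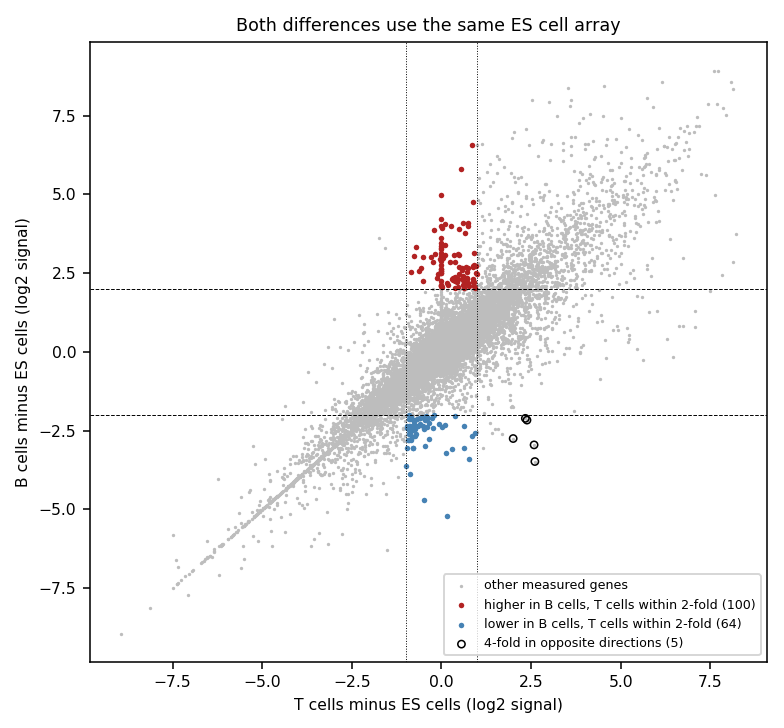
Log2 difference of each measured gene in B cells minus ES cells (vertical) against T cells minus ES cells (horizontal), 1 point per gene; both axes share the ES cell array. Red marks the 100 genes higher in B cells alone, blue the 64 lower in B cells alone and open circles the 5 genes with 4-fold differences in opposite directions, between the dashed 4-fold and dotted 2-fold limits.

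The genes higher in B cells alone began with a protease inhibitor and a lineage factor. Serpinb1a, which inhibits serine proteases of neutrophil granules, had signals of 8983 in B cells against 172 in T cells and 48.3 in ES cells. Ebf1, the early B cell factor that with Pax5 sets the B cell programme, had signals of 5291 in B cells, 138 in T cells and 94.6 in ES cells. The log2 differences of its 5 probe sets ran from 0.41 to 5.80. Cd24a, a glycoprotein of immature and mature B cells, had signals of 24261 in B cells, 1829.8 in T cells and 1534 in ES cells, and its 3 probe sets agreed, from 3.80 to 3.98. In each, the B cell array was high and the T cell array lay near ES cells. Other transcription regulators in the group were Hhex, a homeobox factor, with signals of 324 in ES cells but 5553 in B cells and 536 in T cells, and Pax5, with signals of 584 in B cells against 85.2 in T cells and 76.2 in ES cells and 2 probe sets from 0.89 to 2.62. Pax5 and the other genes named here from outside the first 20 were chosen after their values were seen. Pou2f2, the lymphoid octamer-binding factor, was at least 6.31-fold higher and Tcf4, an E protein, 5.09-fold higher, with T cells at log2 differences of 0.57 and -0.12.

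Signalling proteins were a second group by role. Plcg2, the phospholipase C that acts below the B cell receptor, had signals of 6929.9 in B cells against 906 in T cells and 878 in ES cells, so that T cells and ES cells were alike. Swap70, which binds actin and phosphoinositides in B cells, had signals of 618 in ES cells but 9271 in B cells and 873 in T cells, with 2 probe sets from 3.91 to 4.51. Lrrk2, a large kinase and GTPase, had signals of 3303 in B cells against 211 in T cells and 198 in ES cells, from 1 probe set. In all 3 the ES cell signal was above the detection level, so that the fold is not a limit: 7.89-fold for Plcg2, 15.0-fold for Swap70 and 16.7-fold for Lrrk2. Edaradd, an adaptor of the EDAR receptor, had signals of 1774 in B cells against 82.1 in T cells and 6 in ES cells, but its 5 probe sets ranged from 0.00 to 4.22. Edaradd was below the detection level in both ES cells and T cells. Rab30, a GTPase of the Golgi, had signals of 16.4 in ES cells but 1453 in B cells and 95.7 in T cells. Ryr1, the calcium release channel of muscle, had signals of 1019 in B cells, 103 in T cells and 117 in ES cells, with 2 probe sets from 0.00 to 3.12.

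Enzymes and secreted or surface proteins made up much of the rest of the first 20. Haao, an enzyme of tryptophan breakdown, had signals of 3002 in B cells against 93.2 in T cells and 20.3 in ES cells. Kynu, kynureninase, which acts just before Haao in that pathway, was also in the group, at least 8.40-fold higher, with 2 probe sets from 0.00 to 3.07. B3gnt5, which starts the lacto series of glycolipids, had signals of 572 in ES cells but 5799 in B cells and 349 in T cells, and its relative B3gnt8, which extends N-glycans, 25.5 in ES cells but 906 in B cells and 38.5 in T cells. These 4 were lower in both other arrays than in B cells. Hs3st1, which adds a sulfate to heparan sulfate, had signals of 1154 in B cells against 119 in T cells and 111 in ES cells. Both B3gnt genes and Mgat1 were the 3 members of the list of glycosyltransferases and galectins that were higher in B cells alone. Il12a, the p35 chain shared by interleukins 12 and 35, had signals of 1048 in B cells against 43.9 in T cells and 69.6 in ES cells, from 1 probe set. Both other arrays were below the detection level. Crisp3, a secreted cysteine-rich protein, had signals of 1156 in B cells, 32.1 in T cells and 8.4 in ES cells. Bfsp2, a filament protein of the eye lens, had signals of 49.6 in ES cells but 983 in B cells and 89.2 in T cells, and Hepacam2, an adhesion molecule, 931 in B cells against 61.9 in T cells and 1.2 in ES cells. These 3 were below the detection level in ES cells and in T cells. Ceacam1, an adhesion molecule with an ITIM, had 8 probe sets from 0.00 to 3.81. Also among the first 20 were Kctd14, Trim7, Pxdc1 and Fam43a, with log2 differences of 4.77, 4.10, 3.88 and 3.78. Over the 100 genes, 42 had 1 probe set, and of the 58 with several, 16 had every probe set at least 4-fold higher.

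**Figure D5:**
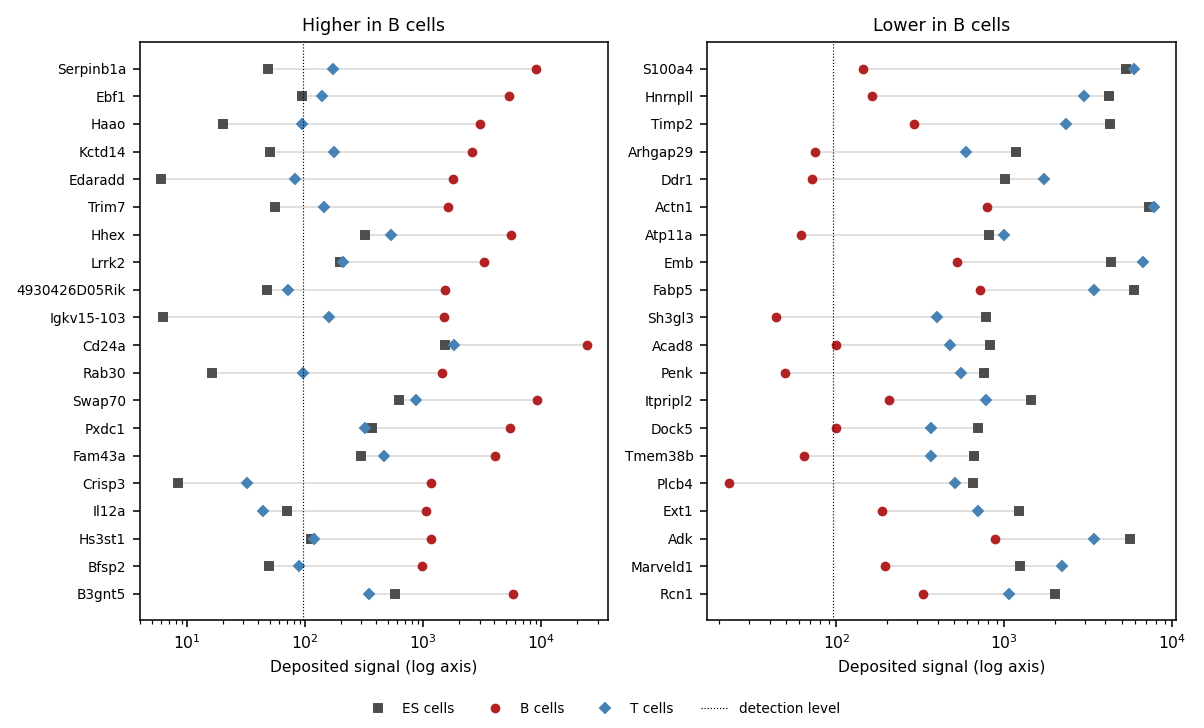
Deposited signals on a log axis of the 20 genes with the highest log2 differences among those higher in B cells alone (left) and the 20 with the lowest among those lower in B cells alone (right), in ES cells (grey squares), B cells (red circles) and T cells (blue diamonds). The dotted line is the detection level of 95.0; on the left the red circle stands apart to the right of both other arrays, and on the right it stands apart to the left.

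The 64 genes lower in B cells alone lie, by the way they were chosen, above the detection level in both ES cells and T cells. S100a4, a calcium-binding protein linked to cell motility, had signals of 143 in B cells, 5938 in T cells and 5309 in ES cells. Hnrnpll, a splicing regulator that controls the CD45 isoforms of T cells, had signals of 163 in B cells, 2979.9 in T cells and 4212 in ES cells, with 2 probe sets from -4.69 to -4.56. Actn1, alpha-actinin, which bundles actin, had signals of 7223 in ES cells but 789 in B cells and 7818 in T cells, with 3 probe sets from -3.20 to -0.73. B cells were the low array in each. Fabp5, a fatty acid-binding protein, had signals of 5875 in ES cells but 715 in B cells and 3409.5 in T cells, with 2 probe sets from -3.60 to -3.04. Emb, embigin, a partner of monocarboxylate transporters, had signals of 523 in B cells, 6717 in T cells and 4328 in ES cells, with 3 probe sets from -3.08 to -0.07. Ddr1, a collagen receptor kinase, had signals of 1004 in ES cells but 71.8 in B cells and 1726 in T cells, but its 8 probe sets ranged from -3.40 to 0.58. Timp2, an inhibitor of matrix metalloproteinases, had signals of 4279 in ES cells but 290.2 in B cells and 2312 in T cells, with 6 probe sets from -3.88 to 0.35. The values of Ddr1 and Timp2 depend on the probe set chosen, as do those of Actn1, Emb, Adk, Itgb1 and other genes named below. In T cells the probe sets of Emb ranged from 0.63 to 2.84. Adk, adenosine kinase, had signals of 873 in B cells, 3394 in T cells and 5608 in ES cells, with 6 probe sets from -2.95 to 0.00. Penk, proenkephalin, the precursor of opioid peptides, had signals of 49.6 in B cells, 550.3 in T cells and 761 in ES cells, from 1 probe set. The integrins Itgb1 and Itga6 were in the group too: Itgb1 had signals of 3059 in ES cells but 555 in B cells and 2182 in T cells and Itga6 of 601 in B cells, 3156 in T cells and 3107 in ES cells, which together form a laminin receptor. For Itga6 both probe sets were past 4-fold, from -3.07 to -2.37, but the 6 probe sets of Itgb1 ranged from -2.46 to 0.00. The others of the first 20 were Arhgap29, Atp11a, Sh3gl3, Acad8, Itpripl2, Dock5, Tmem38b, Plcb4, Ext1, Marveld1 and Rcn1, with log2 differences from -3.63 to -2.61. Among these, Arhgap29, Plcb4, Ext1, Marveld1 and Rcn1 each had a probe set at 0.00. The highest probe sets of Tmem38b, Atp11a and Acad8 were at 0.04, -0.13 and -0.71. Those of Dock5 ranged in T cells from -2.72 to -0.93, so it was not lower in B cells alone by every probe set. Of the 45 lower genes with several probe sets, 6 had all of them at least 4-fold lower.

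Promoter sequences were read for the genes higher in B cells alone, because Ebf1, Pou2f2 and Tcf4 among them encode factors that bind short known motifs. The sequences are from RefSeq on GRCm38.p6, from 250 bases before to 50 bases after a gene's start. The search used the octamer ATGCAAAT of Pou2f factors, CCCNNGGG for EBF, CAGGTG for E proteins such as E2A, AGGAAGTG for ETS factors, GGANTTTCC for kappaB, GGGCGG for the GC box and TATAAA for the TATA box, on both strands. The EBF word reads the same on both strands, and a GC box may overlap it. Shown are the first 5 genes by log2 difference that hold any motif other than the GC box, with the matches in capitals (the GC box is not marked). Ebf1 lies at chr11:44617850-44618149 on the + strand and holds a kappaB word. Trim7 lies at chr11:48825888-48826187 on the + strand and holds an E2A word, and Swap70, at chr7:110221453-110221752 on the + strand, holds 1 too. Pxdc1, at chr13:34652632-34652931 on the - strand, and Crisp3, at chr17:40242239-40242538 on the - strand, hold a TATA box.
Ebf1: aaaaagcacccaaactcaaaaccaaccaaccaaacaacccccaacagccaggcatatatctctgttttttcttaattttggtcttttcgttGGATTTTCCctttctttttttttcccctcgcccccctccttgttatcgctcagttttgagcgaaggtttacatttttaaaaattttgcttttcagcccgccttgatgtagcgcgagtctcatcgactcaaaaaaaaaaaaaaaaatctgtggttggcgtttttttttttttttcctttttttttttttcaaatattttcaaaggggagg
Trim7: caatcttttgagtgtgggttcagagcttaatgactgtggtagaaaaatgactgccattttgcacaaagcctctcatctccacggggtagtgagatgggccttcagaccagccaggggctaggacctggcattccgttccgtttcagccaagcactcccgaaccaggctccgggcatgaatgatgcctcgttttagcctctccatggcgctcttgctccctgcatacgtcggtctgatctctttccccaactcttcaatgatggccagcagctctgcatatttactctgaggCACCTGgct
Swap70: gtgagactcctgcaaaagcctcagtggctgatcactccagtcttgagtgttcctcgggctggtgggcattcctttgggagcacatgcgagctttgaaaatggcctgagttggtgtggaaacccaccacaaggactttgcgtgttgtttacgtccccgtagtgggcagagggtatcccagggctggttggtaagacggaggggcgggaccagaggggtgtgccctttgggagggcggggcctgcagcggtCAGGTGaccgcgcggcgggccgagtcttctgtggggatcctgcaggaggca
Pxdc1: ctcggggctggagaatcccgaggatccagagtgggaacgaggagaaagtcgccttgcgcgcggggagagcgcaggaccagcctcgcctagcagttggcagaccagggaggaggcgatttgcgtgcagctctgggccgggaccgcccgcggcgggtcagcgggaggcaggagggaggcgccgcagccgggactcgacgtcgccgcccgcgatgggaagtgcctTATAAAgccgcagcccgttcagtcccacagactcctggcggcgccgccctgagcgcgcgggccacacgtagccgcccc
Crisp3: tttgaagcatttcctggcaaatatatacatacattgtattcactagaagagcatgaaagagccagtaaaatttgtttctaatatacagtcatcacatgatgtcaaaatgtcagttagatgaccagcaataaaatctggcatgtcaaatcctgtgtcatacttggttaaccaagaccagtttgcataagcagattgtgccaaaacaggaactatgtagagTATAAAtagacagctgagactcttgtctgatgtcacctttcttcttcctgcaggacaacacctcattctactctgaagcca
A match is a word in this window and shows no binding. Genes without an entry were left out and some genes have several promoters, so that the 100 genes higher in B cells alone are represented by 105 promoters of 80 genes and the 64 lower ones by 64 promoters of 48 genes. The octamer was found in 0 of 105 promoters of genes higher in B cells alone, in 27 of 1300 (2.08%) of all higher genes and in 164 of 12886 (1.27%) of measured genes. The EBF word was in 19.0% of the 105, in 18.2% of measured genes and in 13.7% of all 32851 promoters. For the E2A word the shares were 23.8%, 18.5% and 20.2% in the same order. These shares lie close together. The ETS word was in 102 of 1300 promoters of higher genes (7.85%), in 52 of 1356 of lower genes (3.83%) and in 4.23% of measured genes, but in 3 of 105 (2.86%) of genes higher in B cells alone. A GC box was in 52.1% of higher and 65% of lower genes, and in 79.7% of the 64 promoters of the 48 genes lower in B cells alone, against 60.9% of measured genes.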

How the data were processed

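Messenger RNA was measured on 1 Affymetrix array for each of 3 populations. The authors deposited linear intensity values (signals) for 45037 probe sets, made with Affymetrix Expression Console per the submitters' processing notes. No version, algorithm or background step was named there. The columns had 2% trimmed means of 497.8 (B cells), 497.3 (ES cells) and 497.7 (T cells), so the arrays had been brought to 1 mean signal. A change of total mRNA per cell cannot be seen in such values. The number of arrays limits the precision.

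Gene names came from GEO's annotation of the platform, with Entrez IDs looked up in the RefSeq table of GRCm38.p6. Of them, 34945 had 1 symbol, 932 had several and 9160 had none, and 34741 IDs were found with 0 symbols changed. The probe set that was brightest on average stood for its gene. The log2 was taken after a floor at 95.0, the 50th percentile of all values. A gene was measured where 1 of the 2 arrays exceeded the floor. Differences were computed with pandas 2.3.3, and the scripts were tested on simulated data.

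The members and gene lists were chosen with earlier results of these data known. There were 31 class lists, 12 marker lists and 44 families taken by symbol, with 1381 list entries, of which 98 are not analysed here. The family pattern for histones was corrected after values were seen, because it had also matched MHC genes. Genes were named by rule: the 4 with the greatest absolute difference in each list, those called against a list's median, the 24 greatest differences in each direction outside marker lists and names used earlier, the 20 greatest in each direction among genes changed in B cells alone, and genes called in opposite directions in B and T cells. Clone-type names and receptor segments were skipped. Alternatives were a floor at the 65th percentile, no floor with 16 added, quantile normalization, scaling to the 75th percentile, the mean of all probe sets, every probe set passing, an 8-fold threshold, T cells within 1.5-fold, and B and T cells at least 4-fold apart.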

Additional observations from a re-analysis of the deposited data

Results flagged for a closer look

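Among the genes called in B cells, 5 were called in the opposite direction in T cells, both against the same ES cell array, and with 1 array each the difference was not tested. Thy1, a surface glycoprotein of T cells, had log2 differences of -3.48 in B cells and 2.61 in T cells. Igfbp4, which binds insulin-like growth factors, had -2.95 and 2.58. Tesc, a calcium-binding protein, had -2.75 and 2.00. Tgfbr3, a co-receptor for TGF-beta, had -2.11 and 2.34, and Pxylp1, a xylose phosphatase of proteoglycan synthesis, had -2.17 and 2.39.

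Signal also lay in probe sets outside the gene counts. Of 10092 probe sets without a single gene symbol, 4328 were measured, and 698 of these (16.1%) exceeded ES cells at least 4-fold in B cells, while 154 (3.56%) were lower. Among the 3682 measured probe sets with no listed gene the counts were 621 (16.9%) and 118 (3.20%), and among the 646 with several symbols 77 (11.9%) and 36 (5.57%). Probe sets with 1 symbol stood at 9.50% and 8.26%. The median log2 difference of those with no listed gene was 0.64 in B cells and 0.51 in T cells. What these probe sets measure was not tested.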

How the results depend on the processing

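With no replicates there was no test to cross, so the alternatives show how counts and medians move. The 487 named genes were compared under the 5 alternatives that recompute a gene's difference (another floor, no floor, both scalings and the mean of all probe sets). A reversal was counted only for genes at least 4-fold changed in the main setting, and 0 of these reversed. A higher floor or an added 16 keeps the order of the 2 arrays, so neither could reverse a gene. The scalings moved the median of all genes from -0.07 to -0.37 and -0.22, little against a log2 difference of 2. The lack of reversals is thus no sign of stability under these settings, and only the mean of all probe sets could readily have shown one. The size of the difference did move. It moved by at least 0.610 for 341 of the 487 with the floor at the 65th percentile. With the mean of all probe sets it moved for 194, and with no floor for 155. The 1227 higher genes became 739 when every probe set had to pass and 654 at 8-fold. The 1289 lower genes became 799 with the floor at the 65th percentile, 679 when every probe set had to pass and 562 at 8-fold. The 100 genes higher in B cells alone became 55 when every probe set had to pass, 32 at 8-fold, 63 with T cells within 1.5-fold and 65 with B and T cells at least 4-fold apart. The 64 genes lower in B cells alone became 32 with the floor at the 65th percentile, 119 with no floor and 16 added, 30 with the mean of all probe sets, 24 when every probe set had to pass, 12 at 8-fold, 22 with T cells within 1.5-fold and 22 with B and T cells at least 4-fold apart. Counts that held could hide other genes: of 99 genes higher in B cells alone after scaling to the 75th percentile, 67 were among the 100, and of 63 lower ones 30 were among the 64. Low signals limit depth here, since a gene near 95.0 can show no drop. No paired analysis was possible because each group had 1 array.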

Other observations

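Histone genes, which fell outside the lists, had 5 higher and 0 lower of 17 measured members. H3f3b and H3f3a, the genes of the replication-independent histone H3.3, had signals of 126 and 186 in ES cells and 2836 and 2501 in B cells, each from 1 probe set. In T cells they stood at 1769.5 and 1396. H2az1, a histone variant, went the other way but was not called, with a log2 difference of -1.97. Histone genes have near-identical copies, so these values are uncertain. Among 223 measured solute carriers 18 (8.07%) were higher and 21 (9.42%) lower, near the 9.85% and 10.3% of all measured genes. Slc9a7, a sodium-proton exchanger, was at least 31.2-fold higher, Slc7a3, a transporter of cationic amino acids, 42.8-fold lower and Slc38a4, a transporter of neutral amino acids, at least 24.9-fold lower. Of 21 heat shock genes 0 were higher and 6 lower, with Hspb1, a small heat shock protein, 138-fold lower. Of 15 glutathione S-transferases 0 were higher and 6 lower, led by Gsta4, at least 135-fold lower. The 13 measured Hox genes had 0 called either way. Gstm3, Gstm2 and Gstm1, neighbours on chromosome 3, were all lower.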
